A study of Mus musculus with 4 samples.

Results

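The genes for the initiation and elongation factors of cytosolic translation were examined in whole mouse islets kept at low or high glucose. The members were the coding RefSeq entries whose symbol begins with Eif and a digit, or with Eef1 or Eef2, which gave 63 genes from 104 entries, out of 20614 coding gene symbols and 29217 coding entries. Where a gene had several entries, that with the highest mean over the libraries was used. The symbols took in all the large complexes of initiation and elongation, together with regulators that carry the same prefix, such as the kinases of eIF2 and the eIF4E-binding proteins. Islets of male C57bl6 mice of 3 months of age were pooled, kept overnight at 11 mM glucose, starved for 2 h at 2.8 mM glucose and then held at 2.8 mM (LoGlu) or 16.8 mM (HiGlu) glucose, with 2 RNA-seq libraries of total RNA at each concentration. The 4 libraries came from the same pool so the spread between them is that of culture and library rather than of separate animals. This last step lasted 12 h at both concentrations according to the series text, but in the sample labels it is 2 h for LoGlu and 12 h for HiGlu. If the sample labels hold, glucose and time cannot be told apart in any difference below. A whole islet holds beta, alpha, delta and other cells, and in such bulk samples fewer cells of a type and less RNA per cell cannot be told apart.

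Translation starts when eIF4E, bound to the scaffold eIF4G and the RNA helicase eIF4A, holds the cap of an mRNA, and when a small ribosomal subunit that carries eIF3, eIF1, eIF1A, eIF5 and eIF2 with initiator tRNA scans to the start codon. The protein eIF2 has to be recharged with GTP by the exchange factor eIF2B, and kinases that phosphorylate the alpha subunit of eIF2 slow this step, as the endoplasmic reticulum kinase PERK (*Eif2ak3*) does in insulin-secreting cells. During elongation eEF1A brings aminoacyl-tRNA to the ribosome, the eEF1B subunits recharge it, and eEF2 moves the ribosome along by a codon. Beta cells devote much of this machinery to proinsulin, and glucose is a known stimulus of proinsulin translation.

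The values were RPKM, reads scaled to the length of the gene and to the depth of the library. In this table the length is that of the whole gene with its introns, so RPKM was compared between libraries and not between genes. Levels were ranked between genes after rescaling to the exon length of a single coding transcript, which was possible for 61 of the 63 members. This rescaling takes all reads of a gene as exonic. The part of the reads that lay in introns was not tested, so levels on this scale may be too high for genes with long introns. Depth, recovered from the steps of the hairpin miRNA values, lay between 50802500 and 60710000 reads per library. The 50 tested members with a known span had at least 235 reads in every library. Replicate libraries correlated with r of 0.98 over the tested entries, against 0.927 to 0.939 between concentrations. The test required a mean of 1 RPKM or more, which 52 of the 63 members reached. Changes are differences of log2(RPKM + 0.5), HiGlu minus LoGlu, from limma fitted over the 7867 entries that met the minimum, with Benjamini-Hochberg adjusted p-values and a threshold of 0.05, and the added 0.5 RPKM understates the changes of low genes.

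The 5′ ends of the genes that the results turn on are given first, from RefSeq promoters on GRCm38.p6, which held 49 of the 63 members. Many mRNAs for translation factors and ribosomal proteins begin with a C followed by a run of pyrimidines, the TOP sequence through which their translation is regulated. The 30 bases around the annotated start, 15 on each side, are shown for members lower at 16.8 mM, namely those that hold such a run and 3 abundant ones that do not, and capitals mark a C followed by at least 5 pyrimidines.
Eef1a1, chr9:78481710-78481739, - strand: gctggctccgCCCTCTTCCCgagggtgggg
Eif4b, chr15:102073758-102073787, + strand: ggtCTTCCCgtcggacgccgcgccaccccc
Eif3f, chr7:108934400-108934429, + strand: tctgttctaggCTCTCTCTCTTTCTCggca
Eif2s3x, chrX:94212637-94212666, - strand: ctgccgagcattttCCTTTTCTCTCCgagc
Eef2, chr10:81176616-81176645, + strand: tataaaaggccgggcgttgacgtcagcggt
Eif5, chr12:111538086-111538115, + strand: gagatcgacgtgcatgcgagccaatgacaa
Eif4a2, chr16:23107453-23107482, + strand: ccgcggaaaccccgtaggagcagggcggcc
A stretch of this kind was present in *Eef1a1*, *Eif4b*, *Eif3f* and *Eif2s3x*, and was not in these letters for *Eef2*, *Eif5* or *Eif4a2*. The search took a run anywhere in the 30 bases. In *Eif4b* the run lies wholly before the annotated start, and in *Eef1a1*, *Eif3f* and *Eif2s3x* it crosses the start. Whether an mRNA begins with such a run was not tested for any of these genes. It occurred in 4 of the 10 members lower at 16.8 mM with a promoter entry, in 9 of the other 39, and in 26.5% of all members with an entry, against 25.5% of all 27025 genes with a promoter of the same length. A gene was counted where any of its promoters held the motif, with 1.31 promoters per gene on average for members and 1.22 for all genes. This motif was chosen after the values had been seen.

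The letters CACGTG, the E-box bound by MYC, USF and ChREBP, were searched in the window of 250 bases before to 50 after the start. As a palindrome it reads the same on both strands. It was found in 12 of 49 members (24.5%) against 8.09% of all genes, of which 2 of the 10 members lower at 16.8 mM (*Eef2* and *Eif3f*) and 10 of the other 39. For each motif, all genes means every gene with a promoter entry, whether or not it reached the minimum in these islets. The share among the genes that reached the minimum was not taken, so an excess over all genes is not shown to be particular to the members. The 250 bases upstream of *Eef2*, which fell, and of the helicase gene *Eif4a1*, which did not pass the test, are shown with the E-box in capitals, since the same letters lie before members that differed in their change.
Eef2, chr10:81176381-81176630, + strand: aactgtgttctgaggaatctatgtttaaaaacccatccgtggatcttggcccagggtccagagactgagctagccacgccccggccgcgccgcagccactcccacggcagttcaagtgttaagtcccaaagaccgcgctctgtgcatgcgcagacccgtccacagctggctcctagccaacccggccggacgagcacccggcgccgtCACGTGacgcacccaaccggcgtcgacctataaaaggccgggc
Eif4a1, chr11:69672424-69672673, - strand: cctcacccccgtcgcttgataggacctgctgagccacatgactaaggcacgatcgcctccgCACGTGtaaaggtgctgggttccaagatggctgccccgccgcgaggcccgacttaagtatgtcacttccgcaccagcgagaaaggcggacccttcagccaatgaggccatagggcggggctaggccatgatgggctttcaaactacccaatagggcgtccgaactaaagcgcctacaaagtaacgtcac
The ETS-type letters CCGGAAG, on either strand, were in 34.7% of members and 9.93% of all genes, with 2 of 10 members lower at 16.8 mM (*Eif3c* and *Eif3d*) and 15 of the other 39. The letters TGATGNAA, a core shared by ATF4 and CEBP composite sites, were in 4.08% of members and 4.51% of all genes. Of the members lower at 16.8 mM, *Eif2s3x* held this match.

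At 16.8 mM glucose 14 of the 52 tested members were lower and 0 were higher. The background was 22.8% of all tested entries lower and 10.7% higher, so the 26.9% of members lower stood near the background. By an unadjusted p under 0.05 in limma, 22 members were lower and 1 was higher (*Eif2b4*). At the same cut 2497 of all 7867 tested entries were lower and 1110 higher. The direction was more common than the calls, since 43 of 52 members had a negative change, as had 5133 of all 7867 tested entries. The median was -0.18 against -0.11 over all tested entries. Both HiGlu values lay below both LoGlu values for 33 of the 52 members (63.5%, against a background of 48.3%), above both for 5, and overlapped for 14. Of all 7867 tested entries 1743 lay above both and 2325 overlapped. No member changed by more than 1 on the log2 scale, and the 14 calls ran from -41.4% to -23.4% in mean RPKM. On the exon length scale, which brings low genes with long introns into the test, 27 of 60 members were lower (45%, against a background of 34.2%) and 1, *Eif2b4*, was higher (background 13.4%). The count of 14 fell to 4 without HiGlu replicate 2 and to 7 without LoGlu replicate 1.

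**Figure D1:**
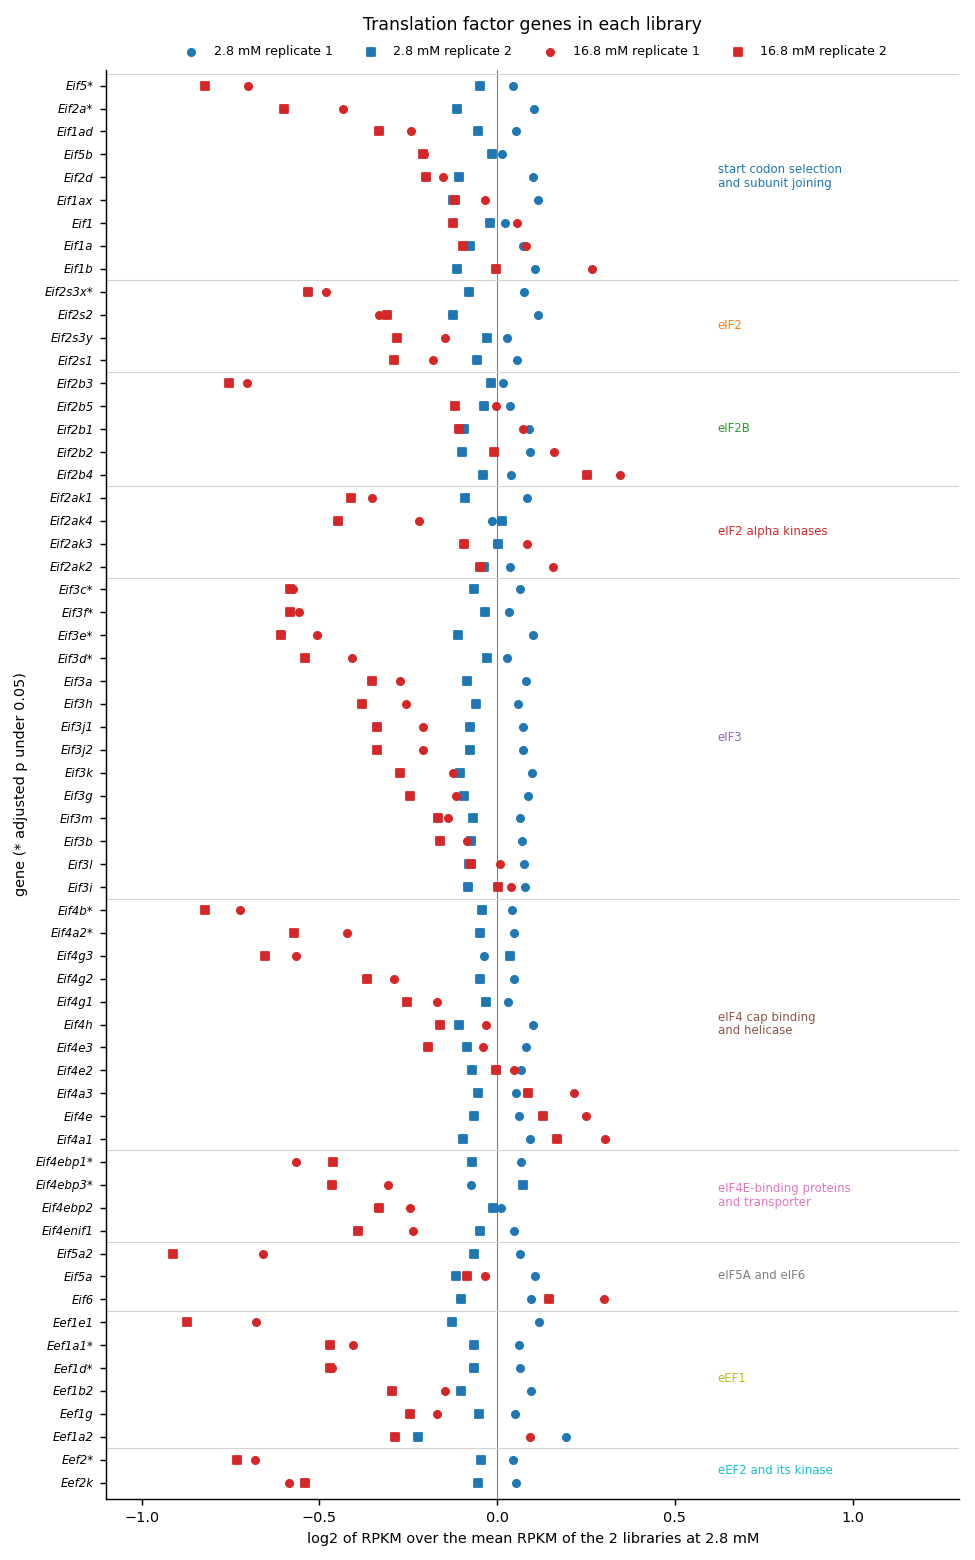
Each row is a member, grouped by role, and each point is the RPKM of a library as log2 of its ratio to the LoGlu mean, with LoGlu in blue, HiGlu in red, circles for replicate 1 and squares for replicate 2; *Eif4e1b*, with 2 or 3 reads per library, is left out. Asterisks mark the 14 members with an adjusted p under 0.05, for which the red points lie left of both blue points.

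**Figure D2:**
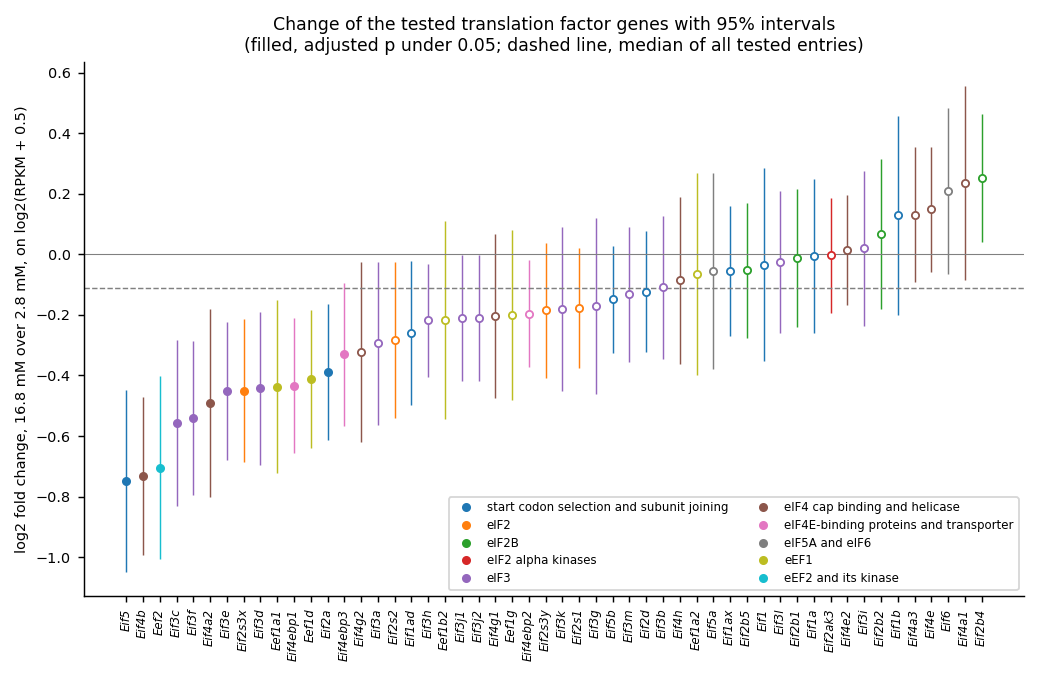
The log2 change of each of the 52 tested members, HiGlu minus LoGlu on log2(RPKM + 0.5), is drawn with its 95% interval from limma, coloured by role, filled where the adjusted p is under 0.05. The estimates run from -0.75 for *Eif5* to 0.25 for *Eif2b4*, and the dashed line is the median of all tested entries at -0.11.

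Of the 9 genes grouped under start codon selection and subunit joining, 2 were lower (22.2%, background 22.8%). The group is a broad one and holds *Eif1ad*, *Eif2a* and *Eif2d*, whose products are not core factors of these steps. *Eif5* was among the members with the largest falls. It encodes the GTPase-activating protein that makes eIF2 hydrolyse its GTP during scanning and start codon selection, and lies on mm9 at chr12:112776312-112784964 (12 exons). Its RPKM was 42.1 and 39.5 in the LoGlu libraries and 25.1 and 23.1 in the HiGlu libraries, without overlap. The change was -0.75 ± 0.13 (SE, 2 libraries against 2, limma adjusted p = 0.0057). *Eif2a*, a factor that can deliver initiator tRNA without eIF2, was also lower, with 2.03 and 1.75 RPKM against 1.40 and 1.25 (change -0.39, limma adjusted p = 0.021). Its span overlaps that of *Serp1*, on the other strand, by 52 bases. *Eif1*, whose product opposes eIF5 by holding the scanning ribosome open, was the highest of this group on the exon length scale and did not pass the test, with 100.2 and 97.2 RPKM at LoGlu and 103 and 90.6 at HiGlu. Its interval, -0.35 to 0.28, leaves room for changes of either sign. The ratio of *Eif1* to *Eif5* RPKM was therefore 2.38 and 2.46 at LoGlu and 4.08 and 3.93 at HiGlu. *Eif1b*, the close paralog of *Eif1*, had a change of 0.13 (limma adjusted p = 0.50) with overlapping groups. Of the remaining members of this group, *Eif1a*, *Eif1ax*, *Eif1ad*, *Eif2d* and the subunit-joining GTPase gene *Eif5b* ran from -0.26 to -0.01 and did not pass.

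The 3 subunits of eIF2 are encoded by 4 genes in the male mouse, because the gamma subunit has an X-linked and a Y-linked copy. All 4 HiGlu means were lower and none of the 4 overlapped, against a background of 48.3% below both. Of the 4 genes 1 passed the test (25%, background 22.8%). The X-linked *Eif2s3x* was 5.17 and 4.65 RPKM at LoGlu and 3.52 and 3.39 at HiGlu (change -0.45, limma adjusted p = 0.015). The Y-linked *Eif2s3y* was 3.57 and 3.44 against 3.17 and 2.89 (change -0.19, limma adjusted p = 0.17). The ratio of the X-linked to the Y-linked copy went from 1.45 and 1.35 to 1.11 and 1.18. *Eif2s2* for the beta subunit and *Eif2s1* for the alpha subunit had changes of -0.28 and -0.18. The span of *Eif2s2* overlaps that of the nonagouti gene on the other strand, whose reads over its whole span came to 49.2% of those of *Eif2s2*, and whether strand was used in counting is not stated.

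Of the 5 subunits of the exchange factor eIF2B, 4 were tested and 0 passed, beside a background of 22.8% lower and 10.7% higher. By an unadjusted p under 0.05 in limma, at which 1110 of all 7867 tested entries were higher, 1 was higher. This was *Eif2b4* (delta), which had 2.48 and 2.35 RPKM at LoGlu and 3.07 and 2.87 at HiGlu, both above LoGlu, with a change of 0.25 and an interval of 0.04 to 0.46 (limma adjusted p = 0.067). It passed as higher under quantile normalization and median centring. *Eif2b1* (alpha), *Eif2b2* (beta) and *Eif2b5* (epsilon, the catalytic subunit) had changes between -0.05 and 0.07, and their groups overlapped. *Eif2b3* (gamma) lay under the minimum, at 0.365 and 0.356 RPKM against 0.222 and 0.214. On the exon length scale *Eif2b3* was lower, by 0.65 (limma adjusted p = 8.6e-05), whereas *Eif2b4* was higher, by 0.28 (limma adjusted p = 0.023). Both calls rest on a rescaling that was added after the data were seen.

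Of the 4 eIF2 alpha kinases, *Eif2ak3* (PERK) alone reached the minimum. It read 1.13 and 1.13 RPKM at LoGlu and 1.20 and 1.06 at HiGlu, so the HiGlu values lay on either side of LoGlu, with an interval of -0.19 to 0.19. The other kinases were under the minimum, with means from 0.28 RPKM for *Eif2ak4* (GCN2, which senses uncharged tRNA) to 0.675 RPKM for *Eif2ak2* (PKR, which senses double-stranded RNA). On the exon length scale *Eif2ak1* (HRI, the heme-regulated kinase) was lower by 0.35 and *Eif2ak4* by 0.30, with limma adjusted p of 0.0081 and 0.025. Reads of *Eif2ak1* may include those of *Aimp2* and *Ankrd61*, which overlap it on the other strand and whose reads came to 52.5% and 9.28% of its own.

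The scaffold eIF3 had the most members, with 14 genes tested, 4 lower and 13 with a negative change, and the HiGlu values of 12 lay below both LoGlu values. These shares were 28.6% lower against a background of 22.8%, and 85.7% below both against 48.3%, with *Eif3j1* and *Eif3j2*, which share reads, counted as separate genes. *Eif3c*, a core subunit, was 17.5 and 15.99 RPKM at LoGlu and 11.2 and 11.2 at HiGlu (change -0.56 ± 0.12, limma adjusted p = 0.012). *Eif3f* was 11.6 and 11.0 against 7.67 and 7.53 (change -0.54, limma adjusted p = 0.0097). *Eif3e* was 2.86 and 2.47 against 1.87 and 1.75 (change -0.45, limma adjusted p = 0.013). In these 3 genes the gap between concentrations was wider than the gap between replicates. *Eif3d*, whose product can itself bind the cap of some mRNAs, was 8.33 and 8.01 against 6.15 and 5.62 (change -0.44, limma adjusted p = 0.020). By part of the complex, 3 of the 8 subunits of the octamer (a, c, e, f, h, k, l and m) were lower (37.5%, background 22.8%), with a median of -0.26. Of the 3 genes of the b, g and i module 0 were lower. These 3 ran from -0.17 for *Eif3g* to 0.02 for *Eif3i*, and 0 of them passed by an unadjusted p under 0.05 in limma. At that cut 2497 of all 7867 tested entries were lower and 1110 higher. Whether the octamer and the module differed was not tested. The ratio of *Eif3i* to *Eif3c* RPKM was 0.401 and 0.392 at LoGlu and 0.607 and 0.594 at HiGlu. *Eif3j1* and *Eif3j2* are near-identical copies with near-identical values (change -0.21 in both), so their reads cannot be assigned to either and they are not separate evidence.

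Of the cap-binding and helicase factors of eIF4, 9 were tested and 2 were lower (22.2%, background 22.8%). *Eif4b*, the RNA-binding cofactor that stimulates the helicase, lies on mm9 at chr15:101904204-101927603 (15 exons). It was 12.4 and 11.8 RPKM at LoGlu and 7.33 and 6.85 at HiGlu, and its change was -0.73 ± 0.11 (limma adjusted p = 0.0038). The other helicase cofactor, *Eif4h*, had a change of -0.09 with overlapping groups. The helicase itself has a pair of closely related genes. *Eif4a2*, at chr16:23107832-23113999, was 62.4 and 58.5 RPKM against 45.1 and 40.7 (change -0.49, limma adjusted p = 0.028). *Eif4a1*, at chr11:69480438-69485925, was 35.4 and 31.1 against 41.0 and 37.3, with both HiGlu values above LoGlu, a change of 0.24 and an interval of -0.09 to 0.56 (limma adjusted p = 0.21). Under median centring of the libraries *Eif4a1* passed as higher (0.32, limma adjusted p = 0.023), and under quantile normalization it did not (limma adjusted p = 0.13). The ratio of *Eif4a1* to *Eif4a2* RPKM was thus 0.567 and 0.531 at LoGlu and 0.910 and 0.916 at HiGlu. *Eif4a3*, a related helicase of the exon junction complex rather than of initiation, had a change of 0.13 (limma adjusted p = 0.32), and passed as higher under quantile normalization and median centring (limma adjusted p = 0.014 in both). Small nucleolar RNAs lie within *Eif4a2*, and those with an entry of their own, *Snord2* and *Snora81*, came to 1.56% and 2.24% of the reads of the host.

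The cap-binding protein gene *Eif4e* was 1.79 and 1.64 RPKM at LoGlu and 2.04 and 1.87 at HiGlu, both above LoGlu, but its change of 0.15 did not pass (interval -0.06 to 0.36, limma adjusted p = 0.22). Under quantile normalization and median centring *Eif4e* passed as higher (0.23 in both, limma adjusted p = 0.011 in both). Its relative *Eif4e2*, a repressor-type cap-binding protein, had a change of 0.02. *Eif4e3* lay under the minimum, at 0.436 to 0.528 RPKM, and *Eif4e1b*, an oocyte form, had only 2 or 3 reads per library. Of the scaffold genes, *Eif4g1* was 15.7 and 15.1 RPKM against 13.7 and 12.9 (change -0.20, limma adjusted p = 0.20). *Eif4g2* (DAP5), which lacks the eIF4E-binding part, was 44.7 and 41.8 against 35.3 and 33.6 (change -0.32, limma adjusted p = 0.088). It passed as lower under quantile normalization (limma adjusted p = 0.016), under median centring (0.029), on the exon length scale (0.033) and without the variance trend (0.038). *Eif4g3*, the paralog of *Eif4g1*, was 0.735 and 0.774 against 0.509 and 0.480, and on the exon length scale it fell by 0.60 (limma adjusted p = 2.0e-04).

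All 4 genes for inhibitors and the transporter of eIF4E had both HiGlu values below both LoGlu values, as had 10035 of all 28047 distinct entries. Of the 3 tested genes 3 lay below both, against a background of 48.3% of tested entries. Of these 3 genes 2 passed as lower (66.7%, background 22.8%). *Eif4ebp1* (4E-BP1), which blocks eIF4E when it is not phosphorylated by mTOR, was 3.50 and 3.18 RPKM at LoGlu and 2.26 and 2.42 at HiGlu (change -0.43, limma adjusted p = 0.014). *Eif4ebp3* was 3.27 and 3.62 against 2.79 and 2.50 (change -0.33, limma adjusted p = 0.042). It lies inside the span of *Ankhd1* on the same strand, and *Ankhd1* was lower too, at 1.36 and 1.32 RPKM against 1.14 and 1.06, with reads over its much longer span that came to 2285% of those of *Eif4ebp3*, and the part of the *Eif4ebp3* reads that belongs to *Ankhd1* was not tested. *Eif4ebp2* had a change of -0.20 and an adjusted p of 0.082 in limma. The transporter gene *Eif4enif1* (4E-T), under the minimum, was 0.947 and 0.886 RPKM against 0.777 and 0.699, and *Drg1* overlaps it on the other strand, with reads that came to 712% of its own. The ratio of *Eif4e* to *Eif4ebp1* RPKM was 0.512 and 0.516 at LoGlu and 0.905 and 0.774 at HiGlu.

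**Figure D3:**
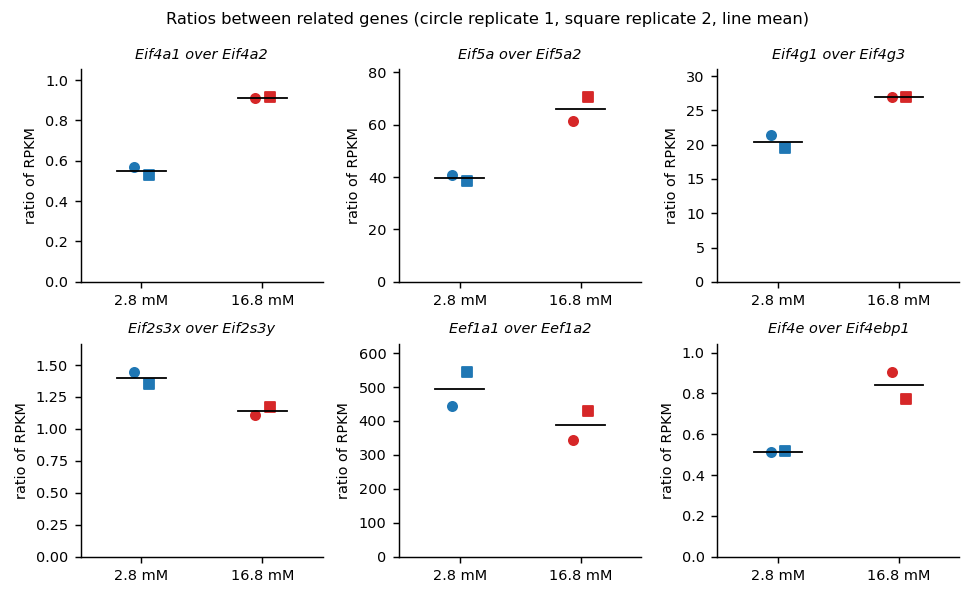
Each panel gives the ratio of the RPKM of a pair of related genes in each library, from 0, at 2.8 mM (blue) and 16.8 mM (red), with the mean as a line; the height of a ratio depends on the spans of the genes, and only its change is read. The ratio of *Eif4a1* to *Eif4a2* goes from a mean of 0.549 to 0.913.

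The differences between these ratios were not tested, and no share was taken over other pairs of genes. Each ratio restates the values of both its genes and is not separate evidence.

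*Eif5a*, the hypusine-carrying factor that helps ribosomes past difficult peptide bonds, was 47.5 and 40.7 RPKM at LoGlu and 43.1 and 41.6 at HiGlu, with overlapping groups. Its paralog *Eif5a2* was far lower, at 1.16 and 1.06 against 0.704 and 0.589, and missed the minimum. On the exon length scale *Eif5a2* was lower by 0.67 (limma adjusted p = 2.0e-04), and the ratio of *Eif5a* to *Eif5a2* went from 41.0 and 38.4 to 61.3 and 70.6. *Eif6*, which keeps the ribosomal subunits apart, was 6.10 and 5.32 RPKM against 7.03 and 6.32, with a change of 0.21 (limma adjusted p = 0.20).

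Of the eEF1 genes 2 of 5 tested were lower (40%, background 22.8%), as was *Eef2*, and these elongation factors include the most abundant members. After rescaling to exon length, *Eef1a1* ranked first of all members with a mean of 1377, *Eef2* followed with 366, and then *Eif4a2* with 170, *Eif1* with 163, *Eif5a* with 120, *Eef1g* with 108 and *Eif4a1* with 106. *Eef2* did not reach *Eef1a1* in any library. *Eif4a2* was above *Eif1* in the LoGlu libraries and below it in the HiGlu libraries, and the ranges of *Eif5a*, *Eef1g* and *Eif4a1* over the 4 libraries overlapped. *Eef2*, on mm9 at chr10:80639376-80645252 (14 exons), encodes the translocase of the ribosome. It was 247 and 232 RPKM at LoGlu and 149 and 144 at HiGlu (change -0.70 ± 0.13, limma adjusted p = 0.0070). *Snord37* within it came to 1.66% of its reads. Its inhibitory kinase gene *Eef2k*, under the minimum at 0.255 and 0.237 RPKM against 0.164 and 0.169, was lower by 0.50 on the exon length scale (limma adjusted p = 7.7e-04). *Eef1a1*, the carrier of aminoacyl-tRNA, at chr9:78326256-78329531 (8 exons), was 906 and 830.3 RPKM against 655 and 627 (change -0.44, limma adjusted p = 0.032). This call held in 8 of 14 alternatives, and was lost under quantile normalization (-0.24, limma adjusted p = 0.053), on the exon length scale (limma adjusted p = 0.11), with no minimum (limma adjusted p = 0.19), and without LoGlu replicate 1, HiGlu replicate 1 or HiGlu replicate 2. *Eef1a1* has many processed pseudogenes, so its reads depend on how multiple alignments were treated, which the sources used here do not give. *Eef1a2*, the form of muscle and neurons, was 2.04 and 1.53 RPKM against 1.90 and 1.46, with overlapping groups. Of the exchange subunits, *Eef1d* was lower, at 4.65 and 4.25 RPKM against 3.22 and 3.21 (change -0.41, limma adjusted p = 0.018), whereas *Eef1b2* and *Eef1g* had changes of -0.22 and -0.20 and did not pass. *Eef1e1*, which belongs to the multisynthetase complex, was 1.17 and 0.984 against 0.672 and 0.587 under the minimum, and fell by 0.74 on the exon length scale (limma adjusted p = 6.7e-05).

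**Figure D4:**
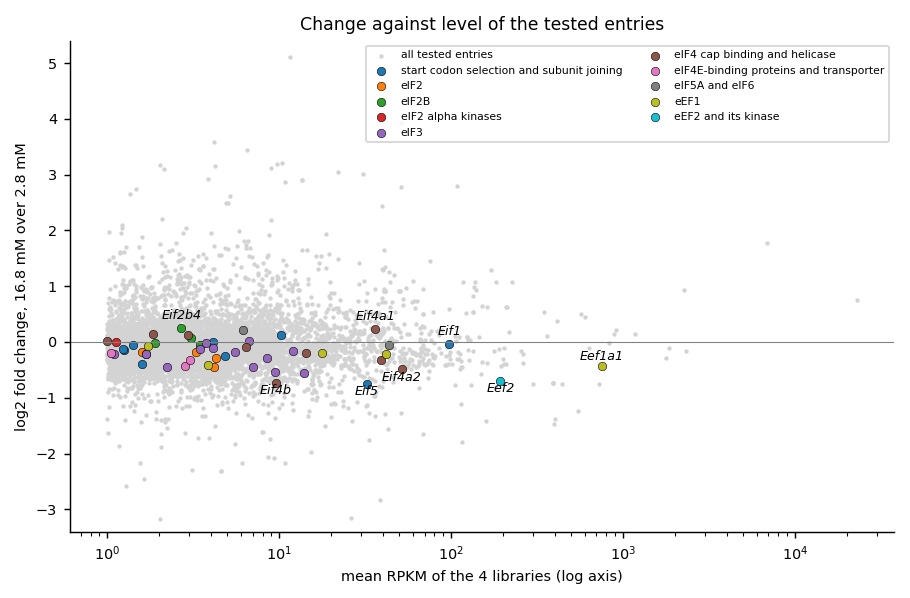
The log2 change, HiGlu minus LoGlu, is plotted against the mean RPKM of the 4 libraries (log axis) for all 7867 tested entries in grey and the 52 tested members in colour by role. Members at every level from 1 RPKM to *Eef1a1* lie within the spread of the grey points, mostly below 0.

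The 11 members under the minimum were *Eif5a2*, *Eef1e1*, *Eif4enif1*, *Eif2ak1*, *Eif2ak2*, *Eif2ak4*, *Eif4e3*, *Eif4e1b*, *Eif4g3*, *Eif2b3* and *Eef2k*. The lowest mean among the tested members was 1.004 RPKM (*Eif4e2*) and the highest among those left out 0.878 RPKM (*Eif5a2*). Apart from *Eif4e1b* they had between 398 and 9148 reads in a library. On the exon length scale 10 of them were tested and 8 were lower, beside a background of 34.2% on that scale, the others being *Eif2ak2* and *Eif4e3*.

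Other genes of cytosolic translation, from a list of release factors, poly(A)-binding proteins, regulators and modifying enzymes, were read in the same fit. Of 47 symbols 46 were in the table and 35 tested, with 3 higher (8.57%, background 10.7%) and 12 lower (34.3%, background 22.8%), and a median of -0.18. *Ppp1r15a* (GADD34), the subunit that directs a phosphatase to eIF2 alpha, had the largest fall, from 53.5 and 49.6 RPKM to 16.5 and 13.4 (change -1.76 ± 0.15, limma adjusted p = 4.6e-04). Its constitutive counterpart *Ppp1r15b* was lower by 0.36, and *Impact*, an inhibitor of GCN2 activation, by 0.59. *Mknk1* (MNK1), a kinase of eIF4E, was 2.47 and 2.66 RPKM against 1.03 and 0.933 (change -1.05, limma adjusted p = 4.3e-04), whereas its paralog *Mknk2* had a change of -0.14 (limma adjusted p = 0.35). *Pabpc4* fell by 0.70 from 5.74 and 5.74 RPKM to 3.35 and 3.34 (limma adjusted p = 0.0024), and the deoxyhypusine synthase gene *Dhps*, which modifies eIF5A, by 0.65. The other genes lower were *Btf3*, *Naca*, *Larp1*, *Larp4*, *Dph2* and *Paip1*. *Pdcd4*, an inhibitor of the eIF4A helicase, was higher, at 2.98 and 2.73 RPKM against 3.71 and 3.61 (change 0.31, limma adjusted p = 0.039). *Mcts1*, a partner of DENR in recycling, rose by 0.38, and *Mcts2*, a near-copy of *Mcts1* whose reads may be shared with it, by 0.37. The count of 12 fell to 7 without LoGlu replicate 1 and to 5 without HiGlu replicate 2, and the count of 3 fell to 0 without LoGlu replicate 2, to 0 without HiGlu replicate 1 and to 1 without HiGlu replicate 2.

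Of the cytosolic aminoacyl-tRNA synthetases 9 of 19 tested were lower (47.4%, background 22.8%) and 0 higher (background 10.7%), with a median of -0.27 and the largest fall in *Yars* (-0.80). Of the cytosolic ribosomal proteins 9 of 77 tested were lower, the share of 11.7% being below the background. A negative change was seen in 75 of these 77, as in 5133 of all 7867 tested entries, and the median was -0.29. Of 6 tested mitochondrial translation factors, *Tufm*, the mitochondrial counterpart of eEF1A, was higher by 0.33 and *Guf1* lower by 0.26, with a median of -0.11 over the list, beside -0.11 over all tested entries.

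**Figure D5:**
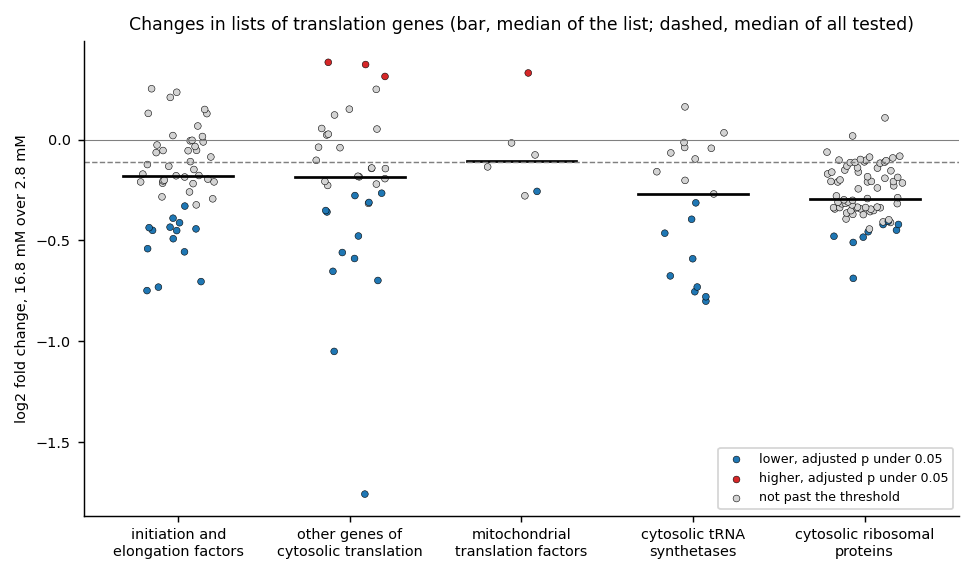
Points are the log2 changes, HiGlu minus LoGlu, of the tested genes of each list, blue where lower and red where higher at an adjusted p under 0.05, with bars at the list medians and a dashed line at the median of all tested entries. The medians are -0.18 for the initiation and elongation factors, -0.18 for the other genes of cytosolic translation, -0.11, -0.27 and -0.29 for the remaining lists in order.

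Several other measures were read beside these results, and not all of them differed between the concentrations. *Ins1* and *Ins2* together took 2.24% and 2.00% of the reads in the LoGlu libraries and 4.34% and 4.02% in the HiGlu libraries. Of the 7 beta cell markers 6 were higher, with none at 0, beside a background of 10.7% of tested entries higher. The markers summed to 20576 to 22925 RPKM against 41133 to 43884. These sums include *Ins1* and *Ins2*, at 21249 and 19015 RPKM against 40753 and 37760, and so largely repeat the insulin values. The summed RPKM of the 4 alpha cell markers was 1688 to 2204 against 1530 to 2162. The 2 delta cell markers summed to 589 and 441 RPKM against 693 and 687, with 0 past the test, and the 4 duct markers to 21.9 and 22.9 against 18.2 and 20.7, with 1 of 2 tested lower. The 11 acinar markers summed to 126 and 360 RPKM at LoGlu and 311 and 631 at HiGlu, highest in the library labelled replicate 2 at each concentration, with 0 of 11 past the test. In both groups the library labelled replicate 1 was above that labelled replicate 2 for 50 of the 52 tested members, against 84.5% of all tested entries at LoGlu and 85.6% at HiGlu. The part of these measures in the results was not tested. Under a centring of each library on its median, which moves the median of all tested entries from -0.11 to -0.03, 19 members were lower and 5 higher, and under quantile normalization 17 lower and 4 higher.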

How the data were processed

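RNA-seq of pooled mouse islets was compared between 2 LoGlu and 2 HiGlu libraries. For library preparation the study's methods name the TruSeq RNA sample preparation kit (v2). The authors deposited RPKM values per RefSeq transcript. Per the labels, STAR, bedtools, DESeq and mm9 were used. The study's methods give STAR for mapping to mm9 of the alpha and beta cell libraries, bedtools for counts on RefSeq exons and DESeq for comparison, and do not describe the islet libraries apart. The table held no counts, so a count test was not run. Whole reads fit the RPKM of hairpin miRNAs for 98.9% to 99.2% of values (within 0.05 read), which gave the depths. Identical entries were used once. The 28047 distinct entries were filtered at a mean of 1 RPKM, and log2(RPKM + 0.5) was tested with limma 3.58.1 (R 4.3.3) with a variance trend and no block. Tables and figures were made with Python 3.11.15, pandas 2.3.3, numpy 2.4.6 and matplotlib 3.10.9. On simulated data of 7867 entries for this comparison, 200 of 200 changed entries were called, and 9.5% of calls were unchanged entries. When none was changed, 6 entries were called. Whether changes as small as those of the members would be called was not tested.

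The members, lists, motifs and roles were chosen with earlier results of these data known. Named were the members past the threshold, the highest of each role, the close paralog families, and the 3 largest rises and falls of the other translation genes past the threshold. Other names were added after their values were seen. The exon length scale, which uses the GENCODE M1 transcript with the longest coding sequence (within 2%), was also added then. Alternatives were the variance trend, the scaling, the minimum, the added value, the replicate block, the entry used per gene and each library left out. Coordinates of genes are those of mm9. All 4 columns of sample values were used.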

Additional observations from a re-analysis of the deposited data

How the results depend on the processing

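The members lower at 16.8 mM numbered 14 and kept within 12 and 19 under no variance trend, quantile normalization, median centring, a minimum of 1 RPKM in every library, 0.1 or 1 RPKM added, 1 entry per gene, and without LoGlu replicate 2 or HiGlu replicate 1. With no minimum 7 were lower, of which 5 were among the 14, and the calls of *Eif4a2*, *Eif3e*, *Eif2s3x*, *Eif3d*, *Eef1a1*, *Eif4ebp1*, *Eef1d*, *Eif2a* and *Eif4ebp3* were lost. On the exon length scale 27 were lower, of which 13 were among the 14, and *Eef1a1* was lost. More entries were tested in both. Quantile normalization lost *Eef1a1* and *Eif4ebp3*, and median centring *Eif4ebp3*. Leaving out a library gave 4 to 13 members lower and 0 higher. Members higher numbered 4 under quantile normalization (*Eif4a3*, *Eif4e*, *Eif2b4* and *Eif6*), 5 under median centring (with *Eif4a1*) and 1 on the exon length scale. *Eif1ad*, *Eif3a*, *Eif4g2*, *Eif3j1* and *Eif3j2* became lower under both scalings. The calls of *Eif5* and *Eif4b* held in all 14 alternatives, with changes of -0.81 to -0.66 and -0.78 to -0.65. The calls of *Eef2*, *Eif3c* and *Eif3f* held in 13, lost without HiGlu replicate 2, and that of *Eif4ebp3* in 7. Without HiGlu replicate 2 the calls of *Eif4a2*, *Eif2s3x*, *Eif3d*, *Eef1a1*, *Eef1d*, *Eif2a* and *Eif4ebp3* were lost as well, and without LoGlu replicate 1 those of *Eif3e*, *Eif2s3x*, *Eef1a1*, *Eif4ebp1*, *Eef1d*, *Eif2a* and *Eif4ebp3*. *Eef1a1* and *Eif4a2* were lost without HiGlu replicate 1, and *Eif4ebp3* without LoGlu replicate 2. None of the 14 changed sign. Of the other translation genes, 7 were higher under quantile normalization and under median centring, 0 with no minimum, and 0 to 2 with a library left out, and 6 were lower with no minimum and 5 to 11 with a library left out.

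With the replicate number as a block, 22 members were lower and 2 higher, and 19 other translation genes were lower. The labels do not say that a number marks a shared batch, and deviations of same-numbered libraries correlated at 0.31. *Eif1ad*, *Eif2s1*, *Eif2s3y*, *Eif3a*, *Eif3h*, *Eif3j1*, *Eif3j2*, *Eif4ebp2* and *Eif4g2* passed as lower and *Eif2b4* and *Eif6* as higher under the block, and *Eif4ebp3* did not pass (-0.33). The share of all calls that were higher was 31.9%, against 42.3% under quantile normalization and 44.1% under median centring.

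Of the 38 tested members without a call, the sign turned under quantile normalization and median centring for *Eif1* (0.0348 and 0.0503), *Eif1a* (0.0858 and 0.0785), *Eif1ax* (0.0282 and 0.0303), *Eif2b1* (0.0652 and 0.0729), *Eif2b5* (0.0353 and 0.0311), *Eif2ak3* (0.103 and 0.0810), *Eif3l* (0.0619 and 0.0576) and *Eef1a2* (0.0126 and 0.0200), and under centring for *Eif5a* (0.0294). With a library left out the sign turned for *Eif1* (-0.123 to 0.0553), *Eif1a* (-0.0845 to 0.0733), *Eif1ax* (-0.143 to 0.0357), *Eif2b1* (-0.0841 to 0.0616), *Eif2b2* (-0.0139 to 0.150), *Eif2ak3* (-0.0648 to 0.0585), *Eif3i* (-0.0536 to 0.0943), *Eif3l* (-0.0945 to 0.0415), *Eif4e2* (-0.0309 to 0.0621), *Eif4h* (-0.182 to 0.0100), *Eif5a* (-0.165 to 0.0555) and *Eef1a2* (-0.227 to 0.0987). The cause of these differences was not tested. With 2 libraries per group the lone library of a group is assumed to vary like the others.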
